A study of Mus musculus with 25 samples.

Results

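Reactive astrocyte genes were described in the prefrontal cortex of stressed male mice. The 9 genes were chosen by symbol: Gfap, Vim, Cd44, Clu, Apoe, S100b, Id3, Fabp7 and Agt. All 9 were found among the 23990 genes listed. Astrocytes are the glial cells that take up glutamate, couple vessels to neurons and supply lipids. When tissue is injured or inflamed they become reactive, a state classically read from more of the filament protein GFAP, often together with vimentin, and from secreted lipid carriers and signalling proteins. In healthy rodent cortex most grey matter astrocytes hold little GFAP, while those of white matter and of the brain surface hold more.

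The study sequenced total RNA of prefrontal cortex from 25 samples of wild type C57BL/6 mice aged 10 weeks, 13 male and 12 female. The groups were stressed males and stressed females given dihydrocaffeic acid/malvidin-glucoside (M-stress/treatment and F-stress/treatment, 4 samples each), stressed mice given vehicle (M-stress/vehicle with 5 samples, F-stress/vehicle with 4) and controls (M-CTRL and F-CTRL, 4 each). The stress was social defeat, in which a mouse is exposed to an aggressor, and dosing began weeks before it and went on during it. Column names of the expression table join a letter to a number, and E is the one letter with a number 5, just as M-stress/vehicle is the one group of 5 samples. Libraries E1 to E5 were read as that group on the assumption that a letter means a group, and none was tied to a particular sample. The other 5 groups were not analysed here, and stress, treatment and sex are not compared. Whether the libraries are from separate animals is not labelled, so their spread can include technical error.

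Library totals were 34565147 to 44265039 reads in genes, and a count of 3 reads equals 0.0673 to 0.0870 CPM, which is reads scaled to a common library size. Of 19239 genes averaging 5 reads or more, 14308, or 74.4%, varied between the libraries beyond counting error (chi-square test with Benjamini-Hochberg adjustment, threshold 0.05). Among 14524 genes of at least 1 CPM, the highest library stood a median of 1.26-fold above the lowest. The labelled tissue was checked with 26 genes of resting astrocytes, all of at least 1 CPM, led by the glutamate transporter Slc1a2 (4112 ± 177 CPM, SD, n = 5 as throughout) and glutamine synthetase, Glul (1799.7 ± 66.2 CPM). Of 8 ependymal and choroid plexus genes in the table, 2 reached 1 CPM.

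Promoters of Gfap, Agt and Vim are shown for their motifs near the start site, since the first 2 share a STAT motif and the last 2 a TATA box. STAT3 is a known activator of Gfap in reactive astrocytes. The sequences are RefSeq promoter windows on GRCm38.p6, from 250 bases before to 50 after the start, which exist here for 8 of the 9 genes (10 windows). Capitals mark TTCNNNGAA, the STAT motif, and TATAAA, the TATA box. The windows are chr11:102897151-102897450 on the minus strand for Gfap, chr8:124569657-124569956 on the minus strand for Agt and chr2:13574061-13574360 on the plus strand for Vim. The Gfap and Vim windows lie inside the gene spans of GENCODE M21, which begin upstream of these RefSeq starts.
Gfap: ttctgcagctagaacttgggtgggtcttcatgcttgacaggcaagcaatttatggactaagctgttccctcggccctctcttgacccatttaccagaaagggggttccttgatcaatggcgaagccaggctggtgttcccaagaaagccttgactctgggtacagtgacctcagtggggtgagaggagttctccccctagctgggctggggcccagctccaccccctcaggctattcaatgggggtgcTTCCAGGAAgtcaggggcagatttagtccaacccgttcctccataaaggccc
Agt: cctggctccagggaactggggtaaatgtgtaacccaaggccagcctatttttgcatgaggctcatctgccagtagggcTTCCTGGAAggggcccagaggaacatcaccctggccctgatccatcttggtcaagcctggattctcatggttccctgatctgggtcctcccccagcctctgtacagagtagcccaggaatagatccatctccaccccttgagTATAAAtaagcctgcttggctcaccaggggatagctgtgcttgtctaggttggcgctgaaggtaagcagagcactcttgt
Vim: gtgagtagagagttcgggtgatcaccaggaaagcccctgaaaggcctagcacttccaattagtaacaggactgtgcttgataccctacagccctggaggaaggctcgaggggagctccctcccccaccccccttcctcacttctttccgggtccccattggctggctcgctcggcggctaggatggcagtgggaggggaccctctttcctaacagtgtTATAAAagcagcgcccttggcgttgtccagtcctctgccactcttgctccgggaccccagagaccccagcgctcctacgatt
In Gfap the motif TTCCAGGAA begins 2 bases before the start, and in Agt TTCCTGGAA begins 172 bases before it. The TATA box begins 30 bases before the start in Agt and 32 before it in Vim. Of all 32851 windows of this length, 8.30% hold TTCNNNGAA and 13.6% hold TATAAA on either strand. Among the 10 windows of these genes, 2 hold the first and 3 the second, the third being Apoe. The nuclear factor I motif TTGGCA is in 14.1% of all windows and in those of Apoe and S100b. The AP-1 motif TGANTCA is in 7.81% of all windows and in none of the 10. The motifs were chosen with these promoters in view, and a match describes letters, not binding.

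Gfap was the gene of the set that varied most. It encodes the astrocyte intermediate filament protein (ENSMUSG00000020932, chromosome 11, 102887336 to 102900912, minus strand, GRCm38). Gfap stood at 116 CPM in library E1, 61.2 in E2, 80.0 in E3, 55.4 in E4 and 51.2 in E5. E1 was far above the rest, E3 was intermediate, and E2, E4 and E5 lay close together. The mean was 72.8 ± 26.6 CPM, and the highest library was 2.27-fold above the lowest. E1 stood at 1.88 times the mean of the other 4 libraries. The variation beyond counting error had a coefficient of 36.5%, against a median of 8.25% over genes of at least 1 CPM. Its SD on the log2 scale was 5.29 times that of genes of like level, which ranked 19 among 14524 genes. Gfap passed the chi-square test, as did the other members (9 of 9 in all, beside 74.4% of all genes tested). Among genes of at least 1 CPM, as all 9 are, 11841 of 14524 passed. From the level of a gene in bulk tissue, fewer cells of a type and less RNA per cell cannot be told apart. Relative to the 26 resting astrocyte genes of the same library, Gfap kept a fold of 2.08 and its peak in E1. Without E1 the fold between the highest and the lowest library was 1.56, and E3 was then the highest.

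**Figure D1:**
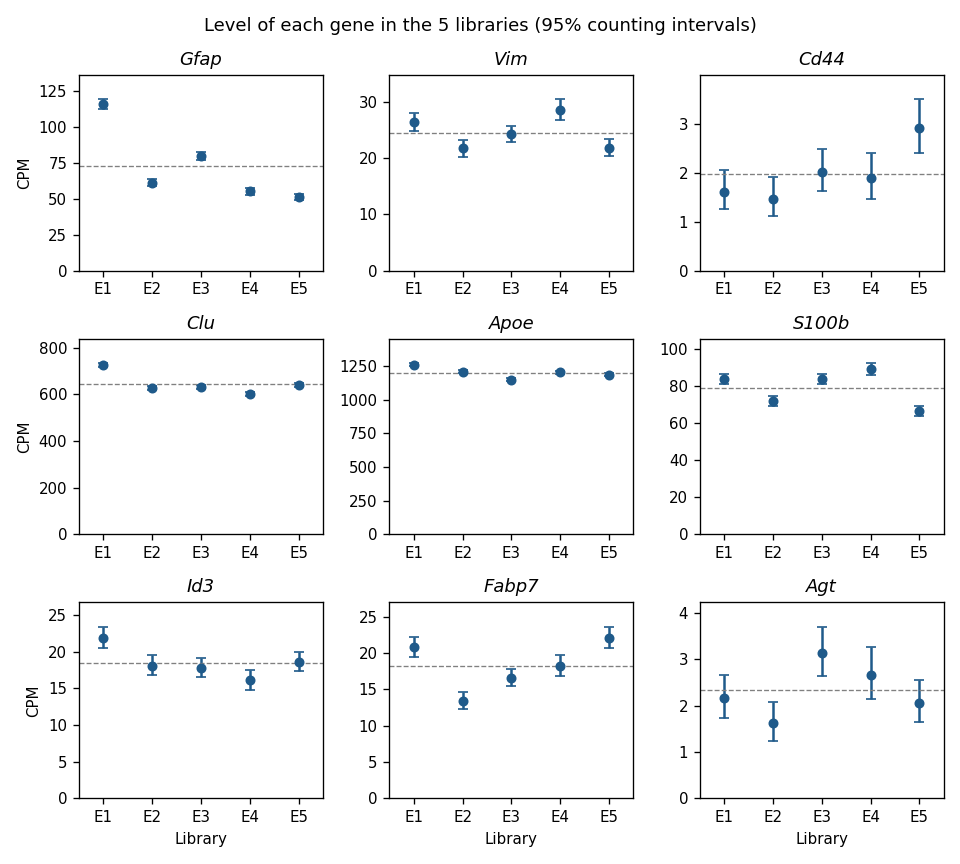
Level of each gene (CPM, linear axis from 0) in the libraries E1 to E5; points are single libraries, bars are 95% counting intervals and the dashed line is the mean. Gfap stands at 116 CPM in E1 and 51.2 to 80.0 CPM elsewhere, while Apoe lies between 1148 and 1261 CPM.

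Vim, the other filament gene, did not share this pattern. It encodes vimentin, which co-assembles with GFAP in reactive astrocytes and is also made by endothelial, mural and meningeal cells (ENSMUSG00000026728, chromosome 2, 13573927 to 13582826, plus strand). Vim stood at 26.3 CPM in E1, 21.7 in E2, 24.2 in E3, 28.6 in E4 and 21.8 in E5. E4 was highest and E1 next, and E2 and E5 were lowest. The mean was 24.5 ± 2.96 CPM and the highest library was 1.32-fold above the lowest (chi-square test, Benjamini-Hochberg adjusted p = 3.4e-10). Per kilobase of exon (RPKM), the ratio of Gfap to Vim was 4.97 in E1, 3.17 in E2, 3.72 in E3, 2.18 in E4 and 2.65 in E5. The ratio was highest in E1, the highest library of Gfap, and lowest in E4, the highest library of Vim.

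Cd44, the hyaluronan receptor of fibrous and reactive astrocytes and of leukocytes, was the member of lowest level (ENSMUSG00000005087, chromosome 2, 102811141 to 102901665, minus strand). Cd44 stood at 1.61 CPM in E1, 1.46 in E2, 2.02 in E3, 1.88 in E4 and 2.91 in E5, or 56 to 116 reads. E5 was highest, and its 95% counting interval (2.41 to 3.49 CPM) lay above that of E1 (1.25 to 2.05 CPM) but overlapped that of E3 (1.62 to 2.48 CPM). The highest library was 1.98-fold above the lowest (adjusted p = 9.0e-05, chi-square test with Benjamini-Hochberg adjustment). Without E5 the fold was 1.37, and the adjusted p of the same chi-square test was 0.260. Library E1, the highest for Gfap, was below the mean for Cd44.

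Clu and Apoe, the most abundant members, had the smallest folds of the 9 genes. Clu encodes clusterin, a secreted chaperone and lipid carrier (ENSMUSG00000022037, chromosome 14, 65968483 to 65981547, plus strand). Clu stood at 725 CPM in E1, 627 in E2, 630.3 in E3, 600.2 in E4 and 639.7 in E5. E1 was above the other libraries, which spanned 1.07-fold, and the fold over all 5 was 1.21 (chi-square test, Benjamini-Hochberg adjusted p = 6.1e-118). Apoe encodes apolipoprotein E, the main lipid carrier that astrocytes secrete (ENSMUSG00000002985, chromosome 7, 19696109 to 19699188, minus strand). Apoe stood at 1261 CPM in E1, 1207 in E2, 1148 in E3, 1202 in E4 and 1186 in E5. Its order was led by E1 and ended with E3, over a fold of 1.10 (chi-square test, Benjamini-Hochberg adjusted p = 5.1e-49). With so many reads even this narrow spread passed, and the SD of Apoe was 0.504 times that of genes of like level. For Clu that ratio was 1.06, so Clu varied about as much as genes of its level. The ratio of Apoe to Clu by RPKM was 2.79, 3.10, 2.93, 3.22 and 2.98 in E1 to E5, a mean of 3.00 ± 0.162. The other ratios computed, Gfap to Vim and Gfap to S100b, both hold Gfap, the gene that varied most, so they give no scale for its steadiness.

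S100b and Fabp7 encode small cytosolic binding proteins. S100b binds calcium and is also made by oligodendrocytes (ENSMUSG00000033208, chromosome 10, 76253853 to 76261159, plus strand). S100b stood at 84.1 CPM in E1, 72.4 in E2, 84.2 in E3, 89.5 in E4 and 66.8 in E5. E4, E3 and E1 were high and E2 and E5 low, a fold of 1.34 (chi-square test, Benjamini-Hochberg adjusted p = 3.8e-35). Fabp7, brain fatty acid binding protein, marks radial glia and a share of adult astrocytes (ENSMUSG00000019874, chromosome 10, 57784881 to 57788450, plus strand). Fabp7 stood at 20.8 CPM in E1, 13.4 in E2, 16.6 in E3, 18.3 in E4 and 22.1 in E5. E5 and E1 were high and E2 low, a fold of 1.65, and without E2 the fold was 1.33. Its SD was 2.28 times that of genes of like level, second to Gfap among the 9 genes. The chi-square test gave Fabp7 a Benjamini-Hochberg adjusted p of 2.3e-20.

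Id3 and Agt are a regulator and a secreted hormone precursor. Id3, an inhibitor of basic helix-loop-helix factors that responds to bone morphogenetic proteins, stood at 21.9 CPM in E1, 18.1 in E2, 17.8 in E3, 16.1 in E4 and 18.6 in E5 (ENSMUSG00000007872, chromosome 4, 136143497 to 136145755, plus strand). Here too E1 was the high library and E4 the low one. The fold was 1.36 (chi-square test, Benjamini-Hochberg adjusted p = 3.4e-07). Without E1 it was 1.16 and the adjusted p of this chi-square test was 0.0901. Agt, angiotensinogen, the precursor of the angiotensin peptides, is made in brain chiefly by astrocytes (ENSMUSG00000031980, chromosome 8, 124556534 to 124569706, minus strand). Agt stood at 2.17 CPM in E1, 1.62 in E2, 3.14 in E3, 2.67 in E4 and 2.06 in E5, from 62 to 140 reads. E3 was high and E2 low, a fold of 1.93 (chi-square test, Benjamini-Hochberg adjusted p = 1.8e-04).

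**Figure D2:**
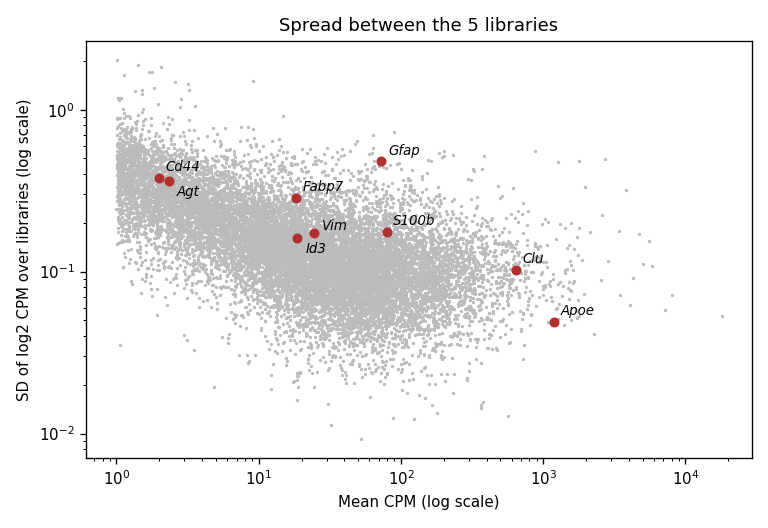
SD of log2 CPM over the 5 libraries against mean CPM (both axes log scale) for 14524 genes of at least 1 CPM in grey and the 9 genes in red. Gfap stands above genes of like level (5.29 times) and Apoe below them (0.504 times).

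Per kilobase of exon, the levels ran over more than 3 orders of magnitude. Apoe came first with 562 ± 19.1 RPKM, then Clu with 187 ± 13.8, S100b with 53.5 ± 6.36 and Gfap with 17.3 ± 6.31. Fabp7 followed with 14.6 ± 2.75, Id3 with 10.3 ± 1.19, Vim with 5.17 ± 0.624, Agt with 1.23 ± 0.310 and Cd44 with 0.292 ± 0.0836. The ranges over libraries overlapped for Gfap and Fabp7 and for Fabp7 and Id3, and for no other neighbours in this order. In E1, at 27.6 RPKM, and in E3 Gfap lay above the highest value of Fabp7 (17.7 RPKM), and the lowest Gfap value was 12.1 RPKM. By CPM, Apoe ranked 61 and Clu 159 of 23990 genes, Gfap ranked 3072 and Cd44 13261.

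**Figure D3:**
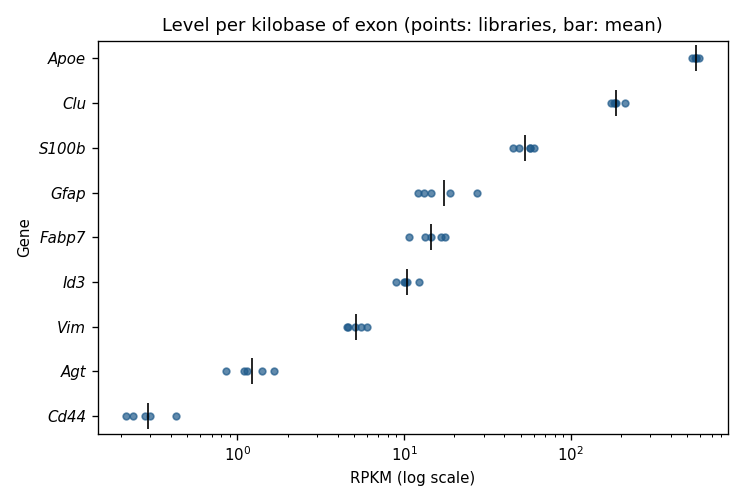
Level per kilobase of exon (RPKM, log scale) of the 9 genes; points are the 5 libraries and the bar is their mean. The order runs from Apoe at 562 RPKM to Cd44 at 0.292 RPKM, and Gfap, Fabp7 and Id3 have touching ranges.

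Which members followed Gfap was measured in 2 ways. The distance is the root mean square difference of log2 values, each gene less its own mean, over the 5 libraries, and the concordance counts the pairs of libraries, of 10, that a gene orders as Gfap does. A gene with no variation at all would lie at a distance of 0.43, and the median of genes of at least 1 CPM was 0.45 with 5 concordant pairs. Id3 was the nearest member at 0.33 with 6 pairs, and 6.36% of genes of at least 1 CPM lay nearer. Clu followed at 0.36 with 7 pairs and S100b at 0.38 with 6. Vim (6 pairs) and Apoe (7 pairs) were at 0.41, close to the distance of a flat gene. Fabp7 at 0.47 with 4 pairs, Agt at 0.49 with 6 and Cd44 at 0.67 with 3 lay beyond it. Thus 5 of the 8 other members were nearer than a flat gene, which by itself does not show that they followed Gfap. Of genes of at least 1 CPM, 27.3% lay nearer than Apoe, 61.0% nearer than Fabp7 and 97.3% nearer than Cd44. The share nearer than a flat gene thus lies between 27.3% and 61.0%. No other member was among the 12 genes nearest to Gfap, and 5 libraries are too few for a correlation.

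Of the 9 genes, 4 had their highest library in E1 (Gfap, Clu, Apoe and Id3), beside 18.9% of all genes of at least 1 CPM. Vim and S100b were highest in E4, Cd44 and Fabp7 in E5 and Agt in E3, and none in E2. Over all genes of at least 1 CPM, E4 was the most common highest library (3896 of 14524). E2 was the lowest library of Vim, Cd44, Fabp7 and Agt. The share of all genes lowest in E2 was not counted, so this is not read as a trait of the set. The resting astrocyte list had its highest mean log2 deviation in E1 (0.12) and its lowest in E2 (-0.10). Of its 26 genes 16 were highest in E1, at a median fold of 1.18. Taken relative to that list, Gfap and Id3 still peaked in E1, Id3 with a fold of 1.27. Clu and Apoe then peaked in E2, with folds of 1.14 and 1.12, so that 2 of the 9 genes were highest in E1. The folds of the others relative to the list were 1.29 for Vim, 1.96 for Cd44, 1.32 for S100b, 1.54 for Fabp7 and 1.82 for Agt, each with the same highest library as before.

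**Figure D4:**
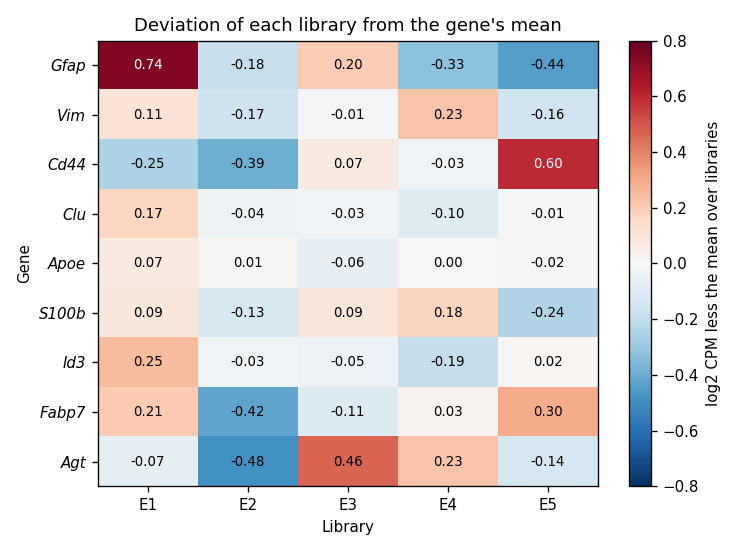
Log2 CPM of each gene in each library less the gene's mean over the 5 libraries (colour and printed value). Gfap reaches 0.74 in E1 and -0.44 in E5, Cd44 reaches 0.60 in E5 and Agt 0.46 in E3, so the high library differs between genes.

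The 12 genes nearest to Gfap, among 9829 that had at least 5 CPM and varied beyond counting error, lay at distances of 0.16 to 0.23. Of them 11 were highest in E1, beside 18.9% of all genes of at least 1 CPM. They were picked for likeness to Gfap, which peaks in E1, so this count follows largely from the choice. The nearest was Cabp7, a neuronal calcium-binding protein gene, with 29.2 CPM in E1, 21.5 in E2, 22.2 in E3, 15.6 in E4 and 15.8 in E5. C4b, a complement component made by reactive astrocytes and oligodendrocytes, had 26.0 CPM in E1, 10.5 in E2, 14.1 in E3, 12.7 in E4 and 10.2 in E5. C4b was far higher in E1 than in the other libraries, and its fold was 2.54, beside 2.27 for Gfap. Its near-identical copy C4a had 3.71 CPM in E1, 3.61 in E2, 3.59 in E3, 1.68 in E4 and 2.46 in E5, so the division of reads between the copies is uncertain. Apod, a lipocalin of oligodendrocytes and astrocytes, had 108.3 CPM in E1, 78.7 in E2, 108.6 in E3, 71.9 in E4 and 63.2 in E5, with E1 and E3 both high. The others were Syngr2, Kmt5c, 1190007I07Rik, Mks1, 2700049A03Rik, Trim17, Gm7694, Ttc38 and Usp40, with means of 5.30 to 18.1 CPM. C4b and Apod were the 2 that a list used here holds.

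The list of neighbours depended on the libraries used, and most on E1. Without E1, 0 of the 12 remained among the nearest 12, which were then led by Erbin, Mitf and Smug1. When any other library was left out, 4 to 6 remained. C4b, no longer among the nearest 12, lay at 0.16 without E1 and at 0.17 over all 5 libraries. These distances are on unlike scales, since a gene with no variation would lie at 0.24 and 0.43 respectively. Relative to such a gene, C4b was less like Gfap without E1. Over the other 4 libraries S100b was the nearest member at 0.23, followed by Clu at 0.24 and Id3 at 0.25, and Cd44 stayed the farthest at 0.49. A gene with no variation would lie at 0.24 over these libraries, and the median of genes of at least 1 CPM was 0.27, so no other member followed Gfap closely there. Oligodendrocyte genes had a median of 0.24 over them, with 5 of 6 pairs concordant, beside 3 of 6 over all genes.

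Lists of related genes are read here against all genes, of which 74.4% of those tested varied and 18.9% of those of at least 1 CPM were highest in E1. Among genes of at least 1 CPM, as most listed genes are, the share that varied was larger, at 11841 of 14524. Of 12 pan-reactive genes, known to rise with Gfap in reactive astrocytes, 11 were tested and 11 varied. Of the 9 of at least 1 CPM, 3 were highest in E1 (C4b and, named after their values were seen, Hspb1 and Cebpd). Their median fold was 1.81, against 1.26 over all genes of at least 1 CPM, a comparison not matched for level. With counting error taken off, their median coefficient of variation was 22.6%, beside 8.25%. Their median distance from Gfap was 0.49. Serpina3n, a secreted protease inhibitor, had 16.3 CPM in E1, 17.7 in E2, 19.0 in E3, 16.3 in E4 and 16.1 in E5. It was nearly level, with E1 below E2 and E3. Lcn2, the iron-binding lipocalin of acute inflammation, had 2.12 CPM in E1, 0.471 in E2, 0.224 in E3, 5.92 in E4 and 1.56 in E5. Lcn2 was thus highest in E4, where Gfap was second lowest. The summed pan-reactive genes stood at 85.6 CPM in E1 and 61.1 to 77.7 CPM in the others, and C4b alone gave 26.0 CPM of the sum in E1.

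Of 12 genes of the neuroinflammatory type of reactive astrocyte, 9 of 12 tested varied and 2 of 11 of at least 1 CPM were highest in E1, both near the shares over all genes (74.4% and 18.9%). Their median fold was 1.52. Their most abundant gene, the class I histocompatibility gene H2-D1, had 31.8 CPM in E1, 36.9 in E2, 39.0 in E3, 44.7 in E4 and 32.3 in E5, so E1 was its lowest library. H2-T23 averaged 31.8 ± 4.37 CPM, and the complement inhibitor Serping1, with the largest fold (3.79), was highest in E4 at 3.65 CPM. Of 11 genes of the ischaemia type tested, 10 varied (74.4% of all genes), and 2 of 7 of at least 1 CPM were highest in E1 (18.9% of all genes). S100a10 averaged 22.9 ± 1.77 CPM and was lowest in E1 (20.6 CPM), Ptgs2 averaged 12.3 ± 2.00 CPM, and B3gnt5 was highest in E1 at 2.12 CPM and lowest in E4 at 0.522 CPM.

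Genes of pial and fibrous astrocytes, the cells with most GFAP, varied in 10 of 10 cases, beside 74.4% of all genes. Of them 3 of 10 were highest in E1, beside 18.9% of all genes, and the median fold was 1.46. Fam107a averaged 370 ± 51.7 CPM and was highest in E1 at 430.4 CPM. Slc38a1, a glutamine transporter gene, averaged 214 ± 13.2 CPM and was lowest in E1. Thbs4, a thrombospondin gene, had 14.7 CPM in E1, 8.995 in E2, 17.4 in E3, 2.44 in E4 and 1.81 in E5. Thbs4 ordered 9 of 10 pairs of libraries as Gfap did, but it was highest in E3 and not in E1. Its fold of 9.58 was far above the 2.27 of Gfap, so Thbs4 did not lie near Gfap by distance.

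Among 12 other filament, lamin and linker genes, all of at least 1 CPM, 9 of 12 varied. Over all genes, 74.4% of those tested varied, and 11841 of 14524 of those of at least 1 CPM. Of the 12 genes 1 was highest in E1, beside 18.9% of all genes. Nestin and synemin, partners of vimentin and GFAP, varied little, with Nes at 11.5 ± 0.483 CPM and Synm at 51.2 ± 1.56 CPM, and neither passed the chi-square test (Benjamini-Hochberg adjusted p = 0.532 and 0.129). The neurofilament genes Nefl (286 ± 40.1 CPM) and Nefm (185 ± 71.4 CPM) were highest in E4, as were Vim and 3896 of 14524 genes of at least 1 CPM. The linker gene Plec averaged 278 ± 23.7 CPM and was highest in E2. Nes and Synm were named after their values were seen.

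The STAT3 and gp130 genes that act upstream of Gfap in reactive astrocytes spanned a median fold of 1.23, near the 1.26 of all genes. Of 12 tested, 8 varied, and 2 of 11 of at least 1 CPM were highest in E1, beside 74.4% and 18.9% of all genes. The kinase gene Jak1 averaged 162 ± 6.97 CPM. The receptor gene Cntfr averaged 77.8 ± 4.97 CPM and was highest in E1 at 83.9 CPM. Osmr, the oncostatin M receptor gene, had 4.81 CPM in E1, 3.03 in E2, 3.23 in E3, 4.55 in E4 and 5.50 in E5, so that it peaked in E5, the lowest library of Gfap. Stat3 itself, named after its values were seen, averaged 49.4 ± 2.23 CPM over a fold of 1.11.

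Around Id3, 15 of 16 genes of bone morphogenetic protein signalling varied and 5 of 16 were highest in E1, beside 74.4% and 18.9% of all genes, with a median fold of 1.28. The receptor gene Bmpr2 averaged 235 ± 24.7 CPM and was lowest in E1, Id2 averaged 85.7 ± 7.82 CPM, and the ligand gene Bmp6 was highest in E4 at 3.88 CPM. Id1, named after its values were seen, was like Id3 highest in E1, at 9.29 CPM against 6.07 to 8.18 CPM in the others. Around Apoe and Clu, 14 of 15 lipid handling genes varied and 4 of 15 were highest in E1, beside the same 74.4% and 18.9%, with a median fold of 1.27, near that of all genes. The receptor gene Lrp1 averaged 546 ± 54.1 CPM and was lowest in E1 (477 CPM), and Lrp8 averaged 101 ± 7.17 CPM and was also lowest there (92.3 CPM). The 2 lipoprotein receptor genes were thus lowest in the library where Apoe and Clu were highest.

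Around Agt, 9 of 10 angiotensin system genes tested varied and 0 of 8 of at least 1 CPM were highest in E1, beside 74.4% and 18.9% of all genes. The prorenin receptor gene Atp6ap2 (258 ± 13.2 CPM) and the angiotensin IV binding peptidase gene Lnpep (47.4 ± 5.11 CPM) were the most abundant. The angiotensin receptor genes Agtr1a, at 0.313 ± 0.172 CPM, and Agtr2, at 0.569 ± 0.205 CPM, stood below 1 CPM in every library and were named after their values were seen. Around Cd44, 11 of 12 hyaluronan genes varied and 1 of 10 of at least 1 CPM was highest in E1, beside the same shares of all genes. The linker genes Rdx (86.5 ± 6.23 CPM) and Ezr (72.7 ± 5.65 CPM), which tie CD44 to actin, were the most abundant. The CD44 ligand gene Spp1 had 3.97 CPM in E1, 4.03 in E2, 5.43 in E3, 6.67 in E4 and 3.84 in E5, and was not high in E5, where Cd44 was.

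Markers of other cell types moved between the same libraries, and their part in the spread of the 9 genes was not tested. Of 12 oligodendrocyte genes 12 were highest in E3, beside 2806 of 14524 genes of at least 1 CPM. Their sum was 9320 CPM in E3, 7571 in E1, 6555 in E2, 4276 in E4 and 4373 in E5. These genes had a median distance from Gfap of 0.30 with 8 concordant pairs, beside 0.45 and 5 pairs over all genes. Gfap shared with their sum the low level in E4 and E5, but Gfap was higher in E1 than in E3, and the sum was higher in E3. Of 12 microglia genes 9 were highest in E1, with sums of 569 CPM in E1 and 487 to 533 CPM in the others. Of 8 oligodendrocyte precursor genes 5 were highest in E1, with sums of 438 CPM in E1 and 307 to 415 CPM in the others. Over all genes of at least 1 CPM, 18.9% were highest in E1.

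Leptomeningeal fibroblast genes bear on Vim, which these cells express, and on surface astrocytes. Their sum was 69.7 CPM in E1, 49.2 in E2, 46.5 in E3, 115 in E4 and 74.4 in E5. In E4, the highest library of Vim, 9 of 9 genes of at least 1 CPM were highest, beside 3896 of 14524 over all genes. Igf2 had 38.4 CPM in E4 against 17.1 to 26.3 CPM in the others, and Ogn had 3.71 CPM in E4 against 0.314 to 1.18 CPM. Blood genes summed to 193 CPM in E4 and 98.9 to 167 CPM in the others. The ependymal and choroid plexus genes summed to 7.36 to 8.92 CPM, at most in E3, with the ciliary factor gene Foxj1 at 4.69 ± 1.02 CPM and Kl at 1.53 ± 0.528 CPM. Endothelial genes, which also accompany Vim, summed to 394 CPM in E4 and 348 to 364 CPM in the others. Mural genes summed to 223 CPM in E1, 196 in E2, 191 in E3, 210.5 in E4 and 208 in E5, so that their sum peaked in E1, although 5 of 9 single genes were highest in E4. The part of these cell types in the level of Vim was not tested.

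**Figure D5:**
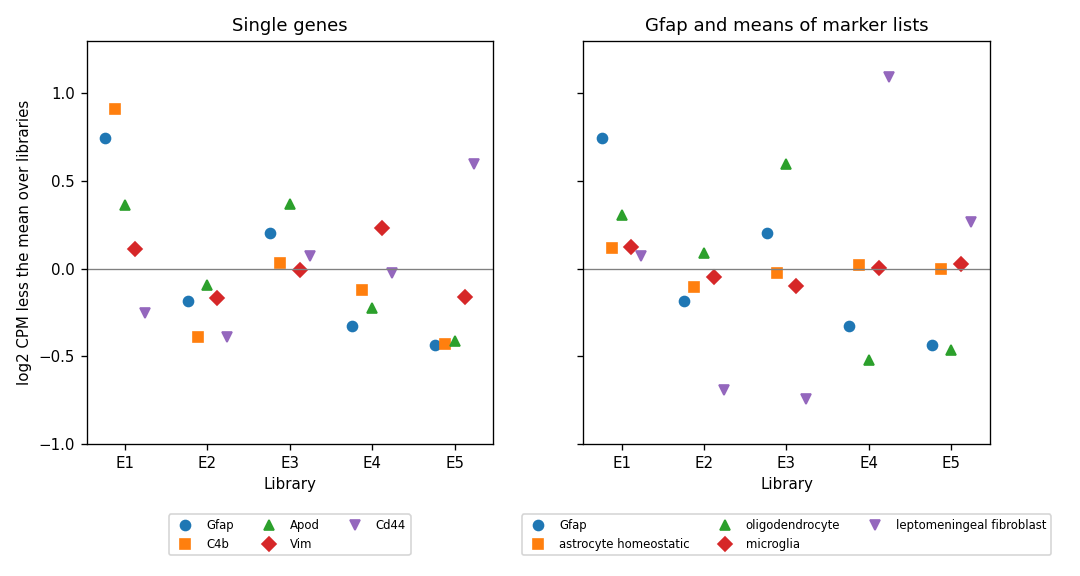
Log2 CPM less the mean over libraries for single genes (left panel) and for Gfap beside the mean of each marker list (right panel) in the libraries E1 to E5. Gfap and C4b are highest in E1, Apod and the oligodendrocyte list in E3, Vim and the leptomeningeal list in E4, and Cd44 in E5.

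Genes annotated over the members could add reads where counting ignores strand. On the opposite strand Gfap overlaps Gm26668 (0.513 CPM), S100b overlaps Dip2a (114 CPM) and Cd44 overlaps Gm23731, and each pair shares 0 exon bases in GENCODE M21.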

How the data were processed

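Total RNA of prefrontal cortex was sequenced. Per the submitters' processing notes, reads were handled with SAMtools 1.9, STAR 2.6.1d, Subread 1.6.3, featureCounts and edgeR, and the builds named are GRCm38 and mm10. Which annotation release was used, whether counting used strand and how genes were filtered is not given in the sources used here. The authors deposited log2 values. Their form was inferred from the values, as log2 of reads plus 0.5 in CPM with an effective library size (0.998 to 1.04 times the summed reads). Setting each column's minimum to 0 reads made 100% of the values whole within 1e-06 reads. The columns E1 to E5 were used and 20 other columns of per-sample values were not. Counts and RPKM (CPM per kilobase of union exon in GENCODE M21, the source of names and coordinates) were computed from the deposited log2 values with matplotlib 3.10.9, scipy 1.17.1, pandas 2.3.3 and numpy 2.4.6 in Python 3.11.15.

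Each gene with a mean of at least 5 reads was tested by chi-square (4 degrees of freedom) for reads proportional to effective library size, with Benjamini-Hochberg adjustment over 19239 genes. The test was checked on simulated data. The test, the intervals and the floors cover counting error only. Folds between libraries are on the log2 scale with 0.5 reads added. The spread over genes of like level is the ratio to a running median of 501 genes. The text names the 9 members, 2 genes of highest level and 1 of largest fold per list among genes of at least 1 CPM, and the 12 genes nearest to Gfap among genes of at least 5 CPM that varied, though not each of these is described and some are not reported here. The members and lists were chosen with earlier results of these data known. Slc10a6, Ren1, Otx2 and Tmem212 of the lists were not matched in the table. Other settings tried were median-of-ratios or total-read scaling, a prior of 0.1 or 2 reads, a minimum of 20 reads or none, levels relative to the resting astrocyte list, and leaving out each library.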

Additional observations from a re-analysis of the deposited data

Results flagged for a closer look

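Among 107 values looked at (named genes and summed lists), 2 had a library whose gap to the rest exceeded Dixon's critical value for 5 samples, 0.71, and chance passes it in about 1 in 20, or about 5.35 of 107. The summed CPM of the 9 genes was 2259.5 in E1 and 2006 to 2023 in the others (ratio 0.929), and Apoe and Clu make up most of this sum. The pericyte gene Vtn stood at 72.9 CPM in E1 and 56.6 to 60.3 CPM in the others (ratio 0.752). Gfap alone, at 116 CPM in E1, did not exceed the critical value.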

How the results depend on the processing

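No paired analysis was possible because the libraries used belong to 1 group. The number of the 9 genes highest in the library where Gfap was highest was 4 as reported, 2 relative to the resting astrocyte list, and 2 to 5 when each library was left out. Of the 12 genes nearest to Gfap, 0 to 6 remained when each library was left out, with none without E1. The fold of Gfap was 1.56 to 2.27 when each library was left out, lowest without E1, and 2.08 to 2.34 under the other settings. Members passing the chi-square test numbered 9 under each scaling and filter run, and 8 without E1 (Id3) or without E5 (Cd44). Genes varying between libraries numbered 12693 with a minimum of 20 reads, 15862 with no filter and 12646 to 13125 when each library was left out. Scaling to total reads moved the median of all genes by at most 0.04 (log2), and Gfap stayed highest in E1 under both other scalings. Gfap was highest in E3 without E1. Counts limit Cd44 (56 to 116 reads) and Agt (62 to 140 reads).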

Other observations

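Some listed genes outside the 9 ordered the libraries much as Gfap did, and they were named after their values were seen. Nr1h3, the liver X receptor gene that activates Apoe, had 3.83 CPM in E1, 3.35 in E2, 3.50 in E3, 2.64 in E4 and 2.66 in E5, and shared the order of 9 of 10 pairs of libraries with Gfap at a distance of 0.26. At this low level E2 and E3, and E4 and E5, differed little, so counts limit their order. Apoe itself was lowest in E3. Srebf1, a lipid synthesis regulator gene and target of that receptor, had 63.6 CPM in E1, 58.6 in E2, 58.4 in E3, 46.5 in E4 and 47.6 in E5 (8 pairs, 0.29). Both were high in E1 to E3 and low in E4 and E5. Lmnb1, a nuclear lamin gene, had 10.6 CPM in E1, 8.71 in E2, 12.8 in E3, 7.68 in E4 and 7.56 in E5 (9 pairs, 0.28). Its highest library was E3, as for the oligodendrocyte genes. Aldh1l1, the pan-astrocyte folate enzyme gene, had 67.5 CPM in E1 and 51.1 to 55.5 CPM in the others, a fold of 1.32 between its highest and lowest library.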
